A study of Mus musculus with 2 samples.

Results

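Integrins are the adhesion receptors with which macrophages hold on to matrix, to other cells and to opsonised particles. Each receptor pairs 1 α subunit with 1 β subunit, and the pair decides what is bound. The 10 genes described here encode integrin subunits found on myeloid cells: the α subunits Itga4, Itga5, Itga6, Itgal, Itgam, Itgav and Itgax, and the β subunits Itgb1, Itgb2 and Itgb7. They were taken as a named list of symbols, which was chosen with earlier results of these data known. All 10 were found among the 55536 annotated genes, with 56 of the 141767 annotated transcripts, and all 10 passed the count minimum of 10 over both libraries.

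The RNA came from bone-marrow-derived macrophages of the mouse strain C57BL/6J, primary phagocytes grown from marrow. All cells had 1 history: 100 ng/ml of lipid A, the Toll-like receptor 4 ligand of bacterial endotoxin, for 12 h, then a washout of 12 h, then 100 ng/ml of lipid A again for 50 min. RNA of the nucleoplasmic fraction (the labels also call it nuclear) was depleted of ribosomal RNA and sequenced in 2 libraries, biological replicates 1 and 2. The labels give no age, sex, genotype beyond the strain, or separate animals, and both libraries carry the same donor entry. SDs therefore measure only the spread between these libraries, which may be technical, and p-values measure counting error only. The RNA input was 500 ng for replicate 1 and 1 µg for replicate 2, and the effect of input cannot be told apart from that of replicate. No untreated, once-treated or cytoplasmic library was analysed here, so levels are described and no effect of lipid A is given.

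The gene-level totals were 20612078 counts in replicate 1 and 22772081 in replicate 2. The 10 integrins held 62504 counts (0.303%) in replicate 1 and 67531 (0.297%) in replicate 2. TPM, the unit used for levels, is a count divided by the effective length of the transcript and scaled to a fixed total. Small RNA genes took 73.9% and 71.7% of that total, which lowers the TPM of every other gene. The cells matched their label: of 11 macrophage markers, all exceeded the protein-coding median and 9 the 90th percentile, led by Lyz2 (lysozyme) at 1032 and 989 TPM, Adgre1 (F4/80) at 449 and 490 TPM, and C1qb (a complement C1q chain) at 212 and 335 TPM.

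Background on the pairs helps to read the levels. Itgb2 encodes CD18, the β2 subunit, which pairs with Itgal (CD11a) to form LFA-1, with Itgam (CD11b) to form Mac-1 or complement receptor 3, and with Itgax (CD11c). Itgb1 encodes β1, which pairs with Itga4 to form a receptor for Vcam1 and fibronectin, with Itga5 to form the classical fibronectin receptor, and with Itga6 to form a laminin receptor. Itgav encodes αv, which binds proteins with an RGD motif and pairs with β1 or with other β subunits. Itgb7 encodes β7, the partner of α4 in the gut-homing receptor and of αE.

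Local differences between annotated transcripts of 3 integrins are shown because their counts are compared further on. Itgam-201 and Itgam-203, the leading Itgam transcripts, differ by 30 bases at their ends and at the start of exon 14 of 30 by 3 bases at chr7:128101634-128101636 on the plus strand of mm10, shown in capitals with 18 bases on each side.
Itgam-201: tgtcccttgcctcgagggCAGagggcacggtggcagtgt
Itgam-203: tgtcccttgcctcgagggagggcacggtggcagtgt
Itgal-201 has 3 bases at the end of exon 18 of 31, at chr7:127317364-127317366 on the plus strand, again in capitals, that Itgal-203 lacks. Itgal-203 is also a shorter model, with 3909 bases and 21 exons against 5195 bases and 31 exons, so this site is only part of what separates them.
Itgal-201: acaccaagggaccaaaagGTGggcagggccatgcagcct
Itgal-203: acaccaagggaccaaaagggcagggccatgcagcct
Itga6-201 keeps an exon of 130 bases, exon 25 of 26 at chr2:71853534-71853663, that Itga6-202 skips. The skip swaps the cytoplasmic tail of the α6 protein, whose forms are known as A (exon kept) and B (exon skipped). The 105 coding bases of that exon, chr2:71853534-71853638, are these.
Itga6-201: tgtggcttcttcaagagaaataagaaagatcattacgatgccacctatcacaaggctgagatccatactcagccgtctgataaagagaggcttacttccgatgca

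The integrins of these macrophages spanned levels from among the most abundant nuclear messages to barely detected ones. Of the 10 genes, 7 lay above the 90th percentile of 12140 protein-coding genes at the count minimum (28.7 TPM), 9 lay above their median (3.585 TPM), and the median of the 10 was 42.5 TPM. In order of mean TPM they were Itgb2, Itga5, Itgb1, Itga4, Itgam, Itgav, Itgal, Itga6, Itgb7 and Itgax. Of the 9 pairs of neighbours in that order, 3 had overlapping values: Itgb2 with Itga5, Itgam with Itgav, and Itgav with Itgal. The order of those neighbours is therefore not resolved by these libraries.

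**Figure D1:**
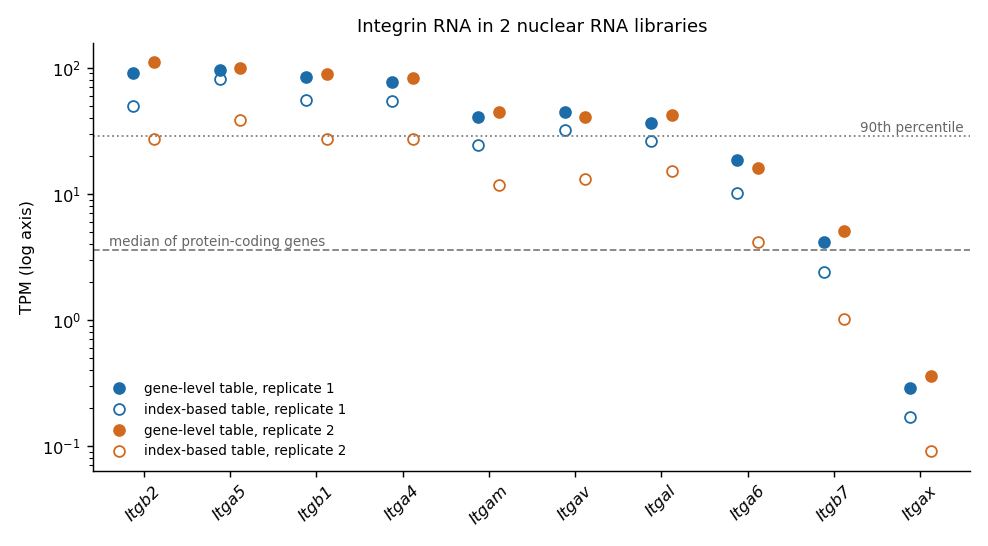
TPM (log axis) of the 10 integrins in order of mean level. Each point is 1 library: filled points are the gene-level table, open points the index-based transcript table summed per gene, blue replicate 1 and orange replicate 2. The dashed line is the median and the dotted line the 90th percentile of protein-coding genes. By gene-level values 7 integrins lie above the dotted line in both libraries, Itga6 and Itgb7 between the lines, and Itgax far below both.

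The leukocyte β2 subunit had the highest mean of the 10, although Itga5 was the higher in replicate 1. Itgb2 (chr10:77530252-77565708, plus strand, mm10 as are all positions here) had 90.4 TPM in replicate 1 and 111 TPM in replicate 2, from 8106 and 10420 counts. Its mean was 101 ± 14.3 TPM (SD, n = 2), at the 97.4th percentile of protein-coding genes, and replicate 2 was the higher. Among its α partners, Itgam (chr7:128062640-128118491, plus strand) had 40.9 and 44.3 TPM, a mean of 42.6 ± 2.40 TPM (SD, n = 2).

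Itgal (chr7:127296260-127335138, plus strand) had 36.1 and 42.3 TPM, a mean of 39.2 ± 4.36 TPM (SD, n = 2). Mac-1 and LFA-1 thus had α subunit RNA at similar levels: Itgam was 1.13 times Itgal in replicate 1 and 1.05 times in replicate 2, while in the index-based table it was 0.943 and 0.777 times Itgal. The direction between them depends on the table.

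Itgax, the CD11c gene often used to mark dendritic cells and tissue macrophages, was the lowest of the 10. It lies directly after Itgam on the plus strand (chr7:128129547-128150657) and had 0.29 and 0.36 TPM, from 37 and 39 counts, at the 12.2th percentile. Itgam TPM was 141 times Itgax TPM in replicate 1 and 123 times in replicate 2, and 145 and 129 times in the index-based table. These neighbouring β2 partners thus differed in level more than 100-fold in both libraries and both tables. In bulk RNA, few cells with the transcript and little RNA in every cell cannot be told apart.

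The RefSeq promoter windows of this neighbouring pair (250 bases before the annotated start, GRCm38.p6) are shown because the genes differed so widely in level. They were searched for GAGGAA on both strands, a core sequence recognised by PU.1, the Spi1 product that drives myeloid genes; matches are in capitals, and TTCCTC is the match on the other strand.
Itgam (chr7:128062390-128062639): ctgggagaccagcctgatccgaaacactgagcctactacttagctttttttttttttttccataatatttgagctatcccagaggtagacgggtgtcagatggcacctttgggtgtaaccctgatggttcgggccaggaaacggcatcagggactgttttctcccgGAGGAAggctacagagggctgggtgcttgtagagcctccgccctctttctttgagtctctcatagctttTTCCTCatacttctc
Itgax (chr7:128129300-128129549): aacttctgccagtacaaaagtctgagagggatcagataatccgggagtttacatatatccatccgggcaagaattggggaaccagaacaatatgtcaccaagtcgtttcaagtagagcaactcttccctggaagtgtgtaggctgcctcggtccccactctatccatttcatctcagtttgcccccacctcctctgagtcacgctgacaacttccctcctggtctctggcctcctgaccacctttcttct
The Itgam window held 2 matches, starting 84 and 15 bases before the start, and the Itgax window held none. Of the 7 integrins matched in the RefSeq table, Itgam, Itgav, Itgb1 and Itga5 had a match and Itga4, Itgb7 and Itgax had none; Itga6, Itgal and Itgb2 were not matched. The motif occurs in 23.3% of all 32851 promoter windows of this length. A match or its absence is only a description of the letters, and a link to the levels was not tested.

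The β1 subunit and its partners stood beside Itgb2 at the top of the order. Itgb1 (chr8:128685654-128733200, plus strand) had 83.9 and 89.4 TPM, a mean of 86.6 ± 3.88 TPM (SD, n = 2). Itga5, the fibronectin receptor α subunit (chr15:103344286-103366763, minus strand), had 95.1 and 99.1 TPM, a mean of 97.1 ± 2.79 TPM (SD, n = 2). Itga4 (chr2:79255426-79333123, plus strand) had 76.8 and 82.9 TPM, a mean of 79.8 ± 4.29 TPM (SD, n = 2).

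In each of these 3 genes replicate 2 was slightly the higher by TPM, and all 3 lay above the 90th percentile in both libraries. Itgav (chr2:83724397-83806916, plus strand) had 44.4 and 40.4 TPM, a mean of 42.4 ± 2.81 TPM (SD, n = 2). Itga6, the laminin receptor α subunit (chr2:71745616-71858416, plus strand), had 18.4 and 15.9 TPM, a mean of 17.1 ± 1.76 TPM (SD, n = 2). Itgav and Itga6 were the 2 integrins with lower TPM in replicate 2, against 8 with higher TPM. This tally depends on the measure: FPKM was higher in replicate 2 for 6 of 10 and index-based TPM for 0 of 10. Over protein-coding transcripts only, Itgav had a mean of 18.3 TPM and Itga6 a mean of 7.30 TPM. On that measure Itgav and Itga6 were slightly higher in replicate 2 and Itga4 lower. The 90th percentile line comes from whole-gene TPM, so coding-only values were not placed against it.

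Itgb7 (chr15:102215995-102231944, minus strand) was far below the other β subunits. It had 4.18 and 5.1 TPM, a mean of 4.64 ± 0.651 TPM (SD, n = 2), at the 55.7th percentile. Itgb2 TPM was 21.6 and 21.7 times that of Itgb7, and Itgb1 TPM was 20.1 and 17.5 times. Itga4 TPM was 18.4 and 16.2 times Itgb7 TPM, and the other α partner of β7, Itgae (αE), was at 0.05 and 0.07 TPM.

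Set against their β subunits, the α subunits gave different sums. Itgal, Itgam, Itgax and Itgad (αD, also a β2 partner) added up to 77.3 and 87.1 TPM, or 0.854 and 0.788 of Itgb2, while in the index-based table the sum was 1.03 and 0.992 of Itgb2. Itga4, Itga5, Itga6 and Itgav added up to 235 and 238 TPM, or 2.80 and 2.67 times Itgb1, and 3.21 and 3.08 times in the index-based table. Some of these α subunits also pair with other β subunits, and RNA sums give no count of receptors.

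The index-based transcript table, summed per gene, gave lower TPM for all 10 integrins. Its values were 0.552 to 0.853 of the gene-level TPM in replicate 1 and 0.200 to 0.390 in replicate 2. Within that table the top 4 were again Itga5, Itgb1, Itga4 and Itgb2, with Itgb2 last of these instead of first. Itga6, Itgb7 and Itgax were the lowest in both tables.

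Between the libraries, no integrin was called. The counts of each gene were compared between the libraries by an exact two-sided binomial test on TMM-scaled totals, and a gene was called at a Benjamini-Hochberg adjusted p under 0.05 with at least a 2-fold ratio. This compares the libraries on counting error, not conditions. Among all 16140 genes tested, 1069 were called (6.62%), and among the 10 integrins 0 were called. Of the 10, 8 had an unadjusted binomial p under 0.05 and 7 an adjusted p under 0.05 without the fold limit, against 45.2% and 38.9% of all genes. At high counts this test gives low p-values to small ratios: Itgam, at a log2 ratio of 0.08, had an adjusted binomial p of 0.0042. No share over genes of like counts was taken, so these shares are not compared further. The log2 ratio of replicate 2 over replicate 1 was above 0 in 7 integrins and below 0 in 3. Its signed median was 0.03 over the integrins and -0.00055 over all genes. The median absolute log2 ratio over all genes was 0.32, and no such median was taken over the integrins.

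The widest difference was that of Itgb7, with 179 and 315 counts. Its log2 ratio was 0.74, or 1.67-fold, with an adjusted p of 1.87e-07 by the exact binomial test. Itgb2 followed at a log2 ratio of 0.29 and Itgal at 0.24, so that the β2 and αL genes were both slightly higher in replicate 2 by counts and by TPM. Itga6 was lowest at -0.15, beside Itgav at -0.13 and Itga4 at -0.12. Itgam was at 0.08 and Itga5 at 0.04. Itgb1 was at 0.02, and Itgax, at 37 and 39 counts, at 0.0029. With library totals in place of the scaling, the log2 ratios of Itga5, Itgb1 and Itgax were below 0.

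Counts and TPM went opposite ways for Itga4. It had 16966 counts in replicate 1 and 16390 in replicate 2, lower in replicate 2 after scaling, while its TPM of 76.8 and 82.9 was higher there. Its deposited effective length was 6661 bases in replicate 1 and 5792 in replicate 2. For Itgb7 the effective length was 1292 and 1809 bases, and TPM differed less than counts did. The transcripts that held these reads are described below.

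**Figure D2:**
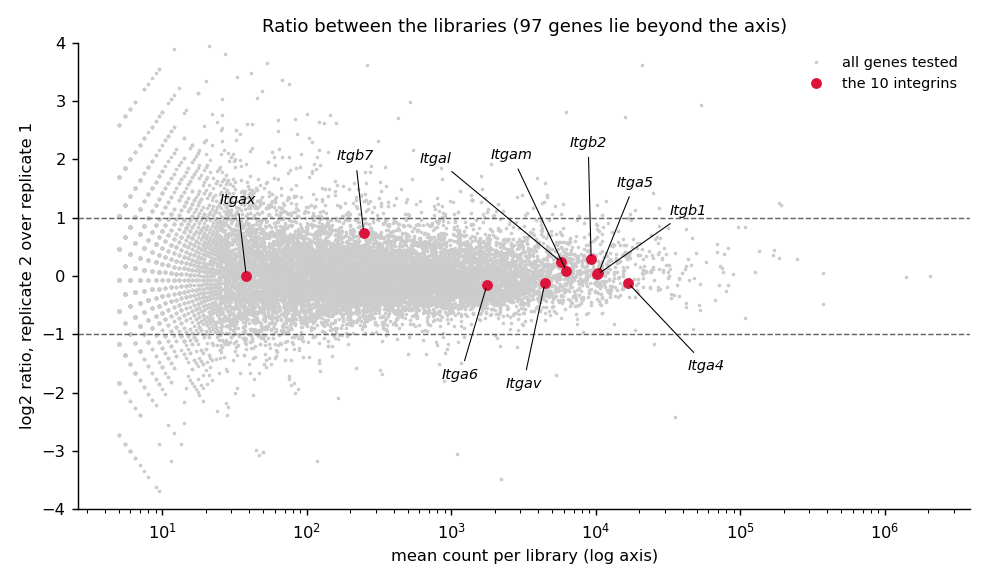
Log2 ratio of replicate 2 over replicate 1 (scaled counts) against the mean count per library (log axis). Grey points are all genes tested, red points the 10 integrins, and dashed lines mark the 2-fold limits; 97 genes lie beyond the vertical axis. The integrins lie between -0.15 and 0.74, inside the limits, with Itgb7 the highest.

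Of the 56 integrin transcripts, 30 are annotated as protein-coding, 13 as processed transcripts without a coding frame, 8 as retained introns and 5 as targets of nonsense-mediated decay. By the alignment-based table, counts were above 0 in both libraries for 42 and 0 in both for 8. The same transcript led in both libraries for 8 of 10 integrins there and for 9 of 10 in the index-based table, beside 83.9% and 79.7% of 7380 protein-coding genes that had more than 1 transcript and reached 100 counts in each library. Itgax, counted among the 8 and the 9, did not reach 100 counts and is not among those 7380 genes. Only Itgal and Itgb7 changed leader in the alignment-based table. The median share of TPM in protein-coding transcripts was 84.2% over the 10 integrins and 77.2% over those 7380 genes. Over the 9 integrins that reached 100 counts in each library it was 73.7%.

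**Figure D3:**
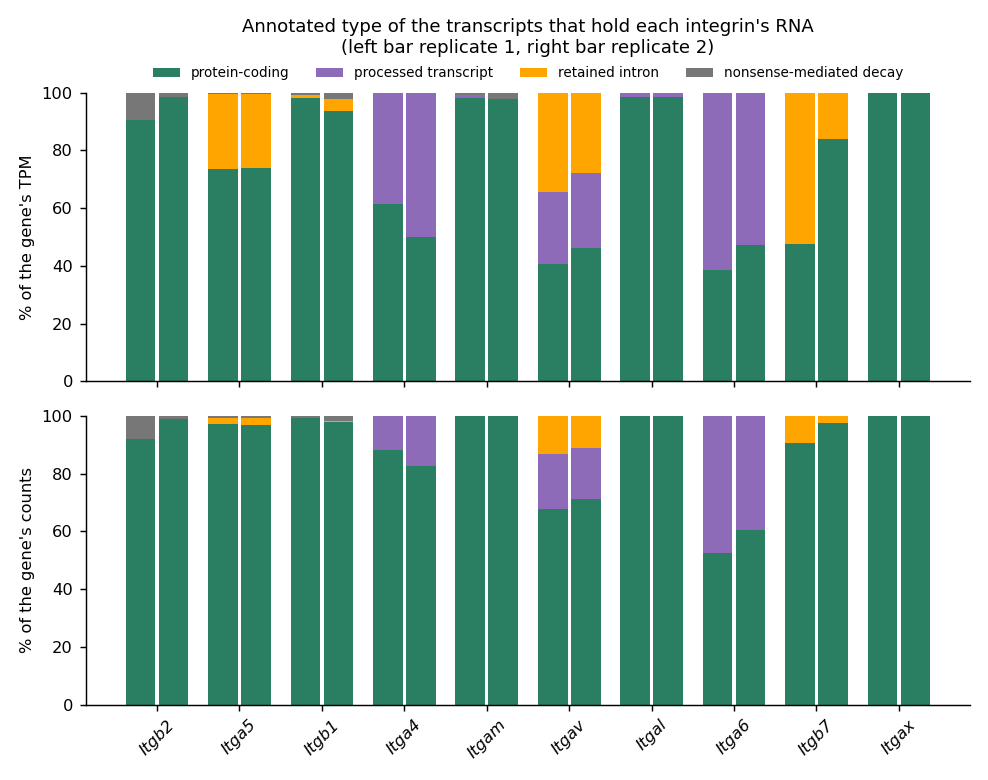
Share of each integrin's TPM (upper panel) and counts (lower panel) by annotated transcript type in the alignment-based table, in percent. The left bar of each pair is replicate 1 and the right bar replicate 2. Itgal, Itgam, Itgax and Itgb1 are above 93% protein-coding by TPM in both libraries, whereas Itga4, Itgav and Itga6 hold much of their TPM in processed or retained-intron transcripts.

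The α subunits differed widely in the share of TPM in transcripts annotated as protein-coding, which include partial models. Itgal held 98.6% and 98.5% of its TPM in protein-coding transcripts, Itgam 98.0% and 97.7%, and Itgax 100% in both. In Itgax, Itgax-201 held 100% and 77.1%, and Itgax-203, a coding model that ends 4.554 kb into the gene, 0% and 22.9% from 0 and 2.95 counts. Itga5 lay between, at 73.7% in both libraries. Itga4 held 61.5% and 49.9%, Itgav 40.6% and 46.1%, and Itga6 38.6% and 47.1%. Short transcripts weigh more in TPM than in counts, and by counts the coding shares were 88.2% and 82.5% for Itga4, 67.8% and 71.2% for Itgav, and 52.6% and 60.5% for Itga6. These were the lowest 3 coding shares by counts in the alignment-based table in both libraries, whereas in the index-based table Itga5 in replicate 1, at 79.3%, was below Itga4, at 81.7%.

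The non-coding RNA of Itga4 and Itgav lay at the 5′ end. Itga4-205, a processed transcript that ends 2.426 kb into the gene (3.12% of its span) and has 1761 bases in introns of Itga4-201, held 18.4% and 19.7% of Itga4 TPM. Itga4-204 held 9.1% and 15.1% and Itga4-202 held 9.8% and 13.0%, and both end before the middle of the gene. The tables disagreed on Itga4-203, which held 1.2% and 2.3% in the alignment-based table and 19.3% and 20.0% in the index-based table. Itga4-201, the only coding model, led in both libraries and both tables.

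Itgav-209, a processed transcript that ends 16.3 kb into the gene with 2186 bases in introns of Itgav-201, held 22.4% and 20.4% of Itgav TPM. The retained-intron models Itgav-203 and Itgav-208 held 15.8% and 16.0%, and 18.4% and 11.9%. The full-length coding Itgav-201 held 30.0% and 31.0%. Itgav-207, the shortest 5′ model, held 2.7% and 5.7% in the alignment-based table and 28.1% and 26.2% in the index-based table. The introns of Itgav also hold genes on the opposite strand, Gm13684 with 512 and 468 counts and Dnmt3l-ps1 with 237 and 265 counts. No label or header states a strand setting for the counting, and RNA of these genes and of Itgav therefore cannot be told apart where they overlap.

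In Itga6 the pattern lay at the 3′ end. Itga6-203, a processed transcript of 2721 bases within the last 8.3% of the gene, runs 1658 bases past the annotated end of Itga6-201 and led with 55.1% and 47.9% of Itga6 TPM. It led in the index-based table as well, with 52.0% and 43.2%. Itga6-201, the coding transcript, held 37.0% and 40.9%.

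**Figure D4:**
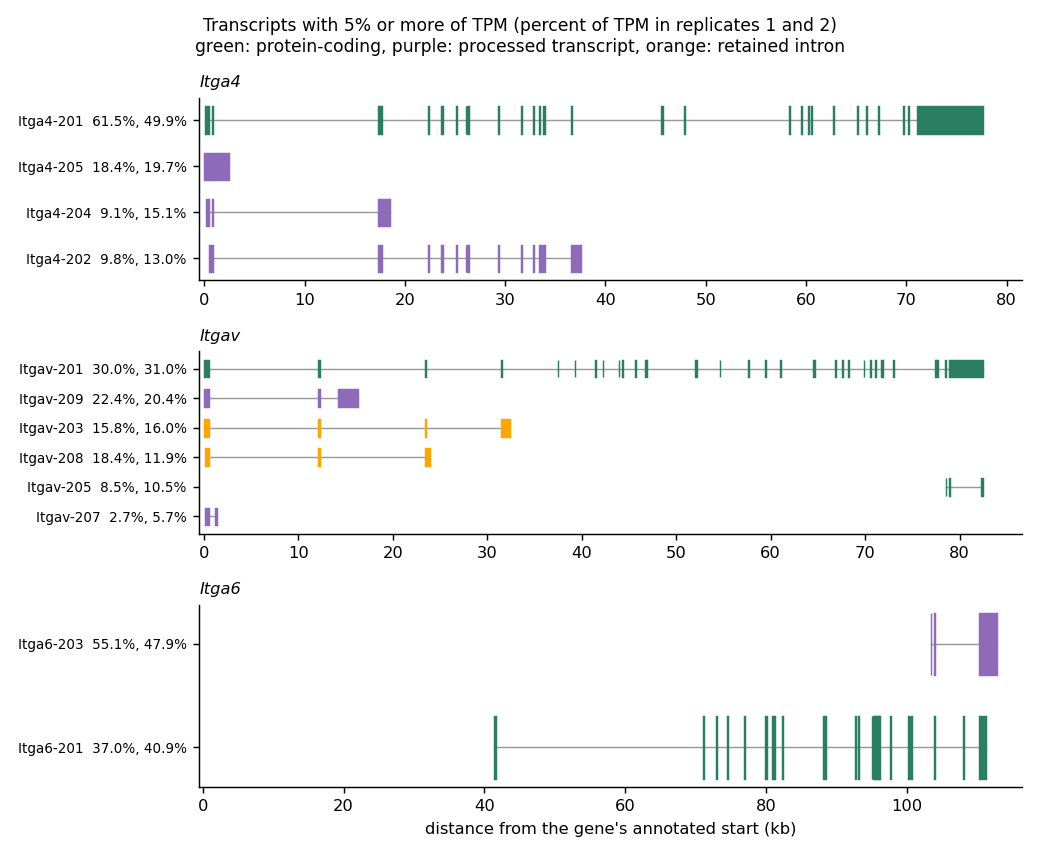
Annotated models of the Itga4, Itgav and Itga6 transcripts that held 5% or more of their gene's TPM in either library, drawn as exons (boxes, thin ones as lines) along the distance from the gene's annotated start in kb; labels give the percent of TPM in replicates 1 and 2. Green is protein-coding, purple processed transcript and orange retained intron. The non-coding models sit at the 5′ end in Itga4 and Itgav and at the 3′ end in Itga6.

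At the Itga6 tail exon whose coding bases are printed above, the form that keeps it held nearly all counts. Itga6-201 had 925 and 914 counts and Itga6-202 had 0 and 67.3. In the index-based table the values were 1311 and 1081 counts against 0 and 60.3. The B form was thus listed at 0 in replicate 1 and held 6.86% of the pair's counts in replicate 2, and 5.29% there in the index-based table.

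Of the 3 choices printed above, that of Itgam was the most even between libraries and tables. The form with the 3 extra bases, Itgam-201, had 1874 and 2061 counts, and Itgam-203 had 3995 and 4381. Itgam-201 thus held 31.9% and 32.0% of the pair, and 30.0% and 30.8% in the index-based table. Both forms keep the reading frame, with coding lengths of 3462 and 3459 bases.

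The Itgal choice differed more. Itgal-201, the form with the 3 extra bases at the end of exon 18, held 41.8% and 53.1% of Itgal coding counts set against Itgal-202, Itgal-203 and Itgal-204 together, and 55.7% and 57.9% in the index-based table. These models differ elsewhere too, and the shares are not those of the donor site alone. By share of TPM Itgal-203, which starts 13.3 kb into the gene, led in replicate 1 with 40.1% against 35.8% for Itgal-201, and Itgal-201 led in replicate 2 with 46.6% against 31.2%. In the index-based table Itgal-201 led in both libraries.

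The β subunits were mostly coding, with single exceptions. Itgb1-201 held 98.3% and 93.6% of Itgb1 TPM. Its decay target Itgb1-202 held 0.87% and 2.17%, and 1.64% and 13.1% in the index-based table, and its retained-intron model Itgb1-203 held 0.83% and 4.27%, and 4.79% and 10.6% in the index-based table. Itgb2-201 held 90.1% and 97.9% of Itgb2 TPM.

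Itgb2-201 had 7437 counts in replicate 1 and 10289 in replicate 2, so the higher gene count of replicate 2 was in coding RNA. The difference in its share of TPM lay in the decay target Itgb2-204. That transcript had 573 counts and 7.20 TPM in replicate 1 and 20.2 counts and 0.24 TPM in replicate 2. The authors' deposited intervals for these TPM values, 2.86 to 11.1 and 0.026 to 1.15, did not overlap, but in the index-based table the counts were 134 and 73.6. With coding transcripts only, Itgb2 had 82.0 and 109 TPM. Itgb2-205, also a decay target, held 1.38% and 1.22% of Itgb2 TPM, and 4.40% and 2.65% in the index-based table. Itgb2-201 led in both libraries and both tables.

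Itgb7 rested on few reads. Its retained-intron model Itgb7-204, of 449 bases with 18 in an intron of Itgb7-201, held 52.5% and 16.1% of Itgb7 TPM from 16.9 and 7.35 counts, and 41.4% and 0% in the index-based table. By counts Itgb7-204 held 9.42% and 2.33%. With coding transcripts only, Itgb7 had 1.98 and 4.27 TPM, so its library difference in TPM was larger there than for the whole gene.

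Itga5 showed the same gap between units. Its retained-intron models Itga5-203 and Itga5-204 together held 25.9% and 25.8% of TPM but 2.35% and 2.45% of counts, since both are short. Itga5-201 held 73.7% of TPM in both libraries. In the index-based table Itga5-203 alone held 33.2% and 32.4%.

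Other annotated genes that overlap the integrins were low. Gm49368, which lies over Itgam on the same strand, had 16 and 30 counts against 5901 and 6576 for Itgam. Cerkl, which meets the 3′ end of Itga4 from the opposite strand, had 37 and 62 counts. The genes inside Itga5 and Itga6 had at most 1 count.

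The remaining 16 integrin subunits were mostly near absence. Of the 16, 1 lay above the median of protein-coding genes, 10 were tested and 0 were called between the libraries, beside 6.62% of all genes. Itgb5, a partner of αv, was highest at 14.5 and 17.7 TPM, followed by Itga9 at 1.23 and 2.00 TPM. Next came Itga2b, the platelet αIIb subunit, at 1.09 and 0.25 TPM from only 11 and 15 counts. Itga3 and Itgb4, laminin receptor subunits of epithelia, were at 0 counts, which allows up to 0.146 and 0.132 CPM. The median of these 16 genes was 0.0825 TPM beside 42.5 TPM for the 10 described here.

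**Figure D5:**
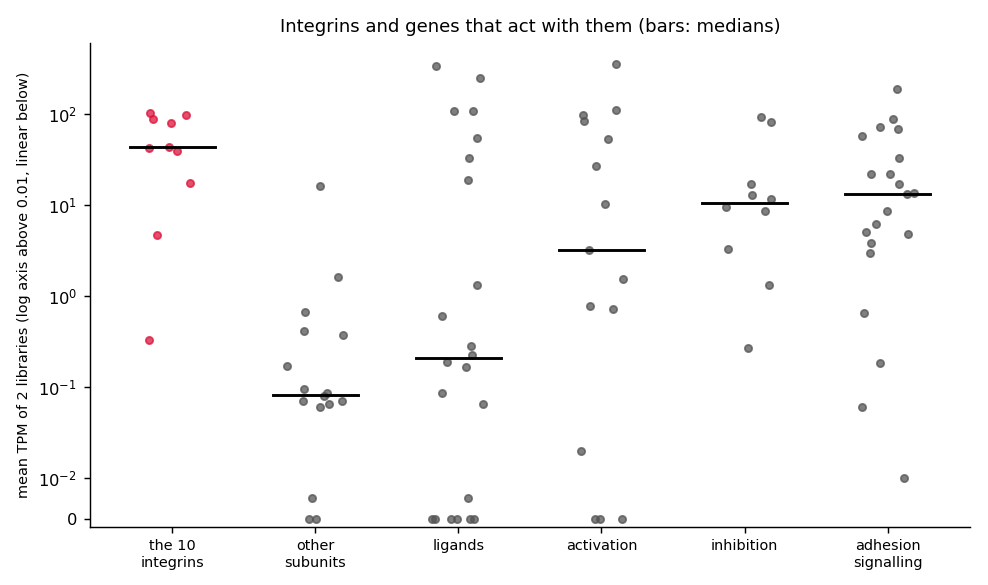
Mean TPM of the 2 libraries (log axis above 0.01, linear below) for the 10 integrins (red) and for 5 lists of related genes (grey); each point is 1 gene and each bar a median. The 10 integrins have a median of 42.5 TPM, the other subunits 0.0825 TPM, and the ligand list runs from 0 to Spp1 at 334 TPM.

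Of 15 genes that switch integrins on, 12 were tested and 0 were called, beside 6.62% of all genes, and 5 lay above the 90th percentile. Fyb, the adaptor ADAP, was at 323 and 381 TPM. Tln1 (talin, which binds β tails) was at 125 and 96.3 TPM and Rap1b (a small GTPase of inside-out activation) at 109 and 85.5 TPM. Counts and TPM went opposite ways for Tln1: it had 10557 and 12791 counts, a log2 ratio of 0.20 after scaling. Fermt3, the haematopoietic kindlin, was at 78.0 and 87.0 TPM, while the other kindlins Fermt1 and Fermt2 and the adaptor Skap1 were at 0 counts.

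Of 10 genes listed as inhibitory, all were tested and 0 were called; the highest were Mdfic at 81.9 and 103 TPM, Flna (filamin A, which competes with talin for β tails) at 76.5 and 85.8 TPM and Rasa3 (a Rap1 GTPase-activating protein) at 16.6 and 17.2 TPM. Of 21 adhesion signalling genes, 20 were tested and 0 were called. The calls in both lists stand beside 6.62% of all genes called. Syk, the kinase downstream of β2 integrins, was at 175 and 199 TPM, Vasp (an actin regulator) at 71.1 and 103 TPM and Cd47 (an integrin-associated protein) at 64.9 and 77.0 TPM.

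Of 22 ligand genes, 15 were tested and 1 was called, beside 6.62% of all genes called. Among the 22, 6 lay above the 90th percentile, 6 were at 0 counts in the gene-level table and 10 lay between. Thy1, among those at 0 counts, had 2.46 and 1.09 TPM in the index-based table. Spp1 (osteopontin, bound by αv and α4 integrins) was at 292 and 376 TPM, and Icam1, the counter-receptor of LFA-1 and Mac-1, at 226 and 263 TPM. C3, whose fragment iC3b is bound by Mac-1, was at 67.7 and 146 TPM, from 10703 and 22484 counts, just under the 2-fold limit after scaling. The called gene was F11r (JAM-A, bound by LFA-1), with 9 and 26 counts, 2.65-fold higher in replicate 2 with an adjusted p of 0.0194 by the exact binomial test.

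In the gene-level table, markers of other cell types were near 0. The 8 dendritic cell genes summed to 1.98 and 2.25 TPM, with Ccr7 highest at 0.60 and 1.16 TPM and Cd209a at 0 counts. The 8 neutrophil genes summed to 1.29 and 1.72 TPM, with Ly6g at 0 counts. The T cell genes summed to 0.42 and 0.32 TPM with Cd3e, Cd3g and Trac at 0 counts, the B cell genes to 0.30 and 0.26 TPM, and all 4 natural killer cell genes were at 0 counts. Mast cell, platelet, endothelial and fibroblast lists each summed to 1.12 TPM or less. The index-based table gave higher values in replicate 1 for the endothelial list, which summed to 7.23 and 0.921 TPM with Pecam1 at 6.75 and 0.702 TPM, and for the T cell list, which summed to 3.93 and 1.02 TPM with Cd3d at 2.88 and 0.616 TPM. Among these lists and the macrophage list, 2 genes were called, beside 6.62% of all genes. Fcgr1, the high-affinity Fc receptor and 1 of 11 macrophage markers tested, had 3576 and 7859 counts, 2.09-fold higher in replicate 2. Ngp, a neutrophil granule gene and 1 of 2 tested in its list, had 12 and 3 counts.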

How the data were processed

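Ribosomal-RNA-depleted nuclear RNA was analysed in 2 libraries of 1 group. Per the file headers and the notes deposited with each library, gene values and alignment-based transcript values come from transcriptome alignments, and index-based transcript values from reads and a transcript index, all on mm10 with GENCODE M21. Tool names, versions and strand setting are not stated in any file or label used. The authors deposited expected counts, which are estimated reads and need not be whole, TPM, and FPKM; the deposited TPM and FPKM are scaled by effective length. The alignment-based table also holds the authors' deposited TPM intervals, whose level is not stated.

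Symbols were matched through the identifiers of the index-based table. The 26345 rows that name no gene were left out; they held 0.144% and 0.0810% of counts, nearly all phiX control. Counts were rounded. TMM factors came from edgeR 4.0.16 in R 4.3.3. Genes whose counts summed to 10 or more were tested with a two-sided exact binomial test, adjusted over all of them, with 0.5 added to counts in ratios. The test was tried on simulated data. Limits from 3 counts and p-values cover counting error only. What the deposited intervals cover is not stated, and some do not contain their TPM value. For Itga4-201 in replicate 1 the interval was 44.9 to 46.4 beside 47.2 TPM. Alternatives used library totals, DESeq2 1.42.0 size factors, other count minimums, a pseudocount of 2, the edgeR exact test with dispersions of 0.01 and 0.04, the index-based table, FPKM and rescaled TPM.

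The members and lists were chosen with earlier results of these data known. The text names all 10 integrins, the 3 highest genes of each pathway list and of the macrophage list, every gene called, and each integrin's 2 leading transcripts per table with its retained-intron or decay transcripts at 10% or more of TPM. Fermt3, Itgae, Itgad, Pecam1, Cd3d, Ccr7, Thy1 and, as defining markers, genes at 0 were named after their values were seen. Itga4-202, Itga4-204, Itgal-202, Itgal-204 and Itga6-202 were also named after their values were seen. Promoter windows are from RefSeq (GRCm38.p6).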

Additional observations from a re-analysis of the deposited data

How the results depend on the processing

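No integrin was called between the libraries under any of the 8 alternatives, while the count over all genes, 1069 of 16140, was 170 of 8641 with 100 or more counts in both libraries (Itgax not tested), 2307 of 24957 in the index-based table and 195 of 16140 by the edgeR exact test with a dispersion of 0.04. By that test 0 integrins had an unadjusted p under 0.05, and 1 had with a dispersion of 0.01. Log2 ratios changed sign with library totals for Itga5 (-0.030), Itgb1 (-0.047) and Itgax (-0.069) and in the index-based table for Itgax (-0.0040), against 0.04, 0.02 and 0.0029 with TMM. The median level, 42.5 TPM, was 21.6 TPM in the index-based table, 198 TPM rescaled over protein-coding genes, 66.0 FPKM, and 40.1 TPM over coding transcripts only, an alternative chosen after seeing the data; in that one, 5 of 10 levels moved by more than 1 SD, the widest by ratio being Itga6 (17.1 to 7.30 TPM) and Itgav (42.4 to 18.3 TPM), then Itga4 (79.8 to 44.3 TPM). Leaving out 1 library gave 42.6 to 43.3 TPM. The median coding share, 84.2% of TPM, was 96.1% of counts, and 82.2% to 88.7% with 1 library left out. Rescaling, FPKM and coding-only values differ by construction; the cause of the index-based shift was not tested. No paired analysis was possible because the series has 1 group.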

Other observations

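Among subunits that can complete the described pairs, the partners of αv were uneven. Itgb3, the β subunit of the vitronectin receptor, had 0.49 and 0.34 TPM from 90 and 65 counts, and Itgb8, a β subunit of αv receptors for latent transforming growth factor β, had 0.13 and 0.21 TPM from 32 and 52 counts. Both were far below Itgb5 at 14.5 and 17.7 TPM in each library. Itgad, next to Itgax in the genome, had 0 and 3 counts in the gene-level table and 0.971 and 0.287 TPM in the index-based table, above Itgax there at 0.169 and 0.0910 TPM. The order of Itgad and Itgax thus differed between the tables. These genes were picked after their values were seen.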
